A study of Rattus norvegicus with 4 samples.

Results

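Myc and 7 genes that act with it at the entry into the cell cycle were followed in rat kidney tubule cells injured with hydrogen peroxide (H2O2). The set was given by name: the transcription factor gene Myc, the D-type cyclin genes Ccnd1, Ccnd2 and Ccnd3, the kinase gene Cdk4, the inhibitor gene Cdkn1b (p27), the ornithine decarboxylase gene Odc1 and the sliding clamp gene Pcna. All 8 had a probe named through its RefSeq accession, out of 8963 genes named in this way on the array, and all 8 were well above background on each of the 4 arrays. The accessions were NM_012603 (Myc), NM_171992 (Ccnd1), NM_022267 (Ccnd2), NM_012766 (Ccnd3), NM_053593 (Cdk4), NM_031762 (Cdkn1b), NM_012615 (Odc1) and NM_022381 (Pcna). A gene with more than 1 such probe is given by its brightest.

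In a cell leaving quiescence, mitogens raise MYC and the D-type cyclins. Cyclin D binds CDK4, and the pair phosphorylates the retinoblastoma protein RB, which then releases E2F factors to switch on genes of DNA replication, Pcna among them. The protein p27 holds cyclin-dependent kinases in check and is typically abundant in quiescent cells, and Odc1, a classic MYC target, makes the polyamines that growing cells need. In the injured kidney, surviving tubule cells re-enter the cell cycle to repair the epithelium.

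NRK-52E is an established epithelial line from the tubules of normal rat kidney. Cultures grown to 100% confluence in medium with 10% serum received 0.003%, 0.006% or 0.009% H2O2 in medium for 1 h, or medium without H2O2 (the control), were washed, and were kept for 12 h without serum before total RNA was taken. Each dose was measured on 1 array, so each value stands for 1 culture, nothing separates a dose from the other differences between cultures. The small number of arrays limits precision. The series asks which molecules from dying cells make the cells around them divide, and the serum-free recovery was common to all 4 cultures, the control included.

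The 4 arrays lay on 1 slide, in positions that follow the dose, so position and dose cannot be told apart. Between 51.8% and 54.9% of probes were well above background, no spot was saturated, and the 75th percentile of the spot signals, to which levels are scaled, lay between 121 and 180 intensity units, lowest at 0.009%. Of the tubular epithelial markers with a named probe, 10 of 12 were above background on at least 1 array. Krt8, a keratin of simple epithelia, was at 59.3, 55.8, 43.6 and 36.9 times the 75th percentile from the control to the highest dose. The keratins Krt18 (0.065, 0.30, 0.44 and 0.55) and Krt19 (0.37, 0.31, 0.74 and 1.15) were, unlike Krt8, highest at 0.009%. The epithelial adhesion gene Epcam and the renal transcription factor gene Pax8 were not above background, and the E-cadherin gene Cdh1 was above it on 2 arrays. Of 5 fibroblast markers, 3 were above background, Col3a1, Col1a2 and Pdgfrb, and their summed level was 32.0, 9.20, 13.2 and 19.6 times the 75th percentile over the same 4 arrays. Of 4 endothelial markers only Kdr was above background (summed level 0.11 to 0.32), and of 6 macrophage markers Itgam and C1qa were not, with a summed level between 22.4 and 42.1 that was mostly Cd14.

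The 8 genes went different ways. Myc, Odc1 and Pcna were above the control at every dose, Ccnd1, Ccnd3, Cdk4 and Cdkn1b were below it at every dose, and Ccnd2 was above it at 0.003% and below it at the higher doses. At 0.003%, 3 of the 8 were at least 2-fold higher (Myc, Odc1 and Pcna), against 14.9% of all features (20894 genes and unnamed probes), and 1 was at least 2-fold lower (Ccnd1), against 13.6% of features. At 0.006%, 2 were higher (Myc and Odc1), against 14.9% of features, and 1 was lower (Ccnd3), against 10.5%. At 0.009%, the same 2 were higher, against 16.5% of features, and none was at least 2-fold lower, against 7.40%. Since each dose has a single array, the 2-fold limit sorts genes by size and tests nothing. At 1.5-fold, 3 of the 8 were higher at each dose, against 26.1%, 27% and 31.4% of features, and 4, 3 and 3 were lower, against 24.7%, 21.5% and 17.3%. The median difference of the 8 genes was -0.14, -0.36 and -0.39 on the log2 scale over the 3 doses, beside 0.03, 0.01 and 0.13 over all features. These 3 comparisons share the control array.

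**Figure D1:**
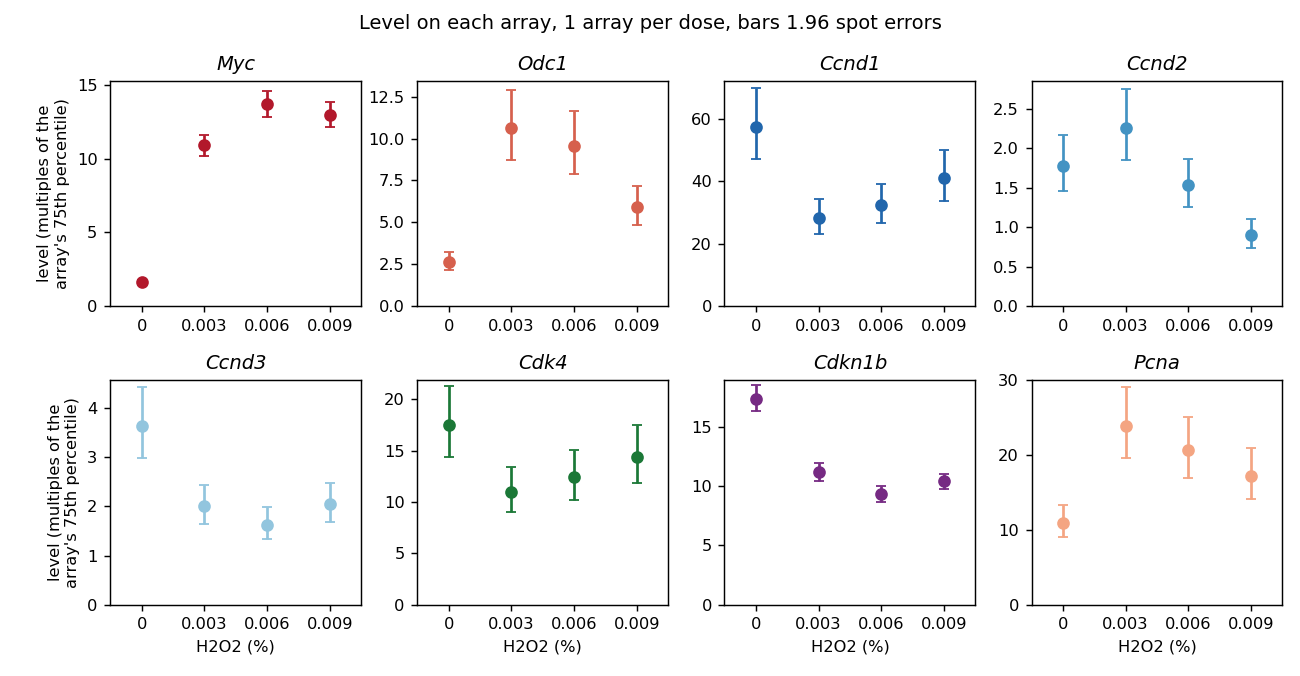
Level of each gene on each of the 4 arrays, in multiples of the array's 75th percentile (linear axis from 0), against the H2O2 dose in %. Points are single arrays and bars are 95% intervals from the scanner software's spot error. Myc stands at 1.64 in the control and between 10.9 and 13.7 with H2O2, while Cdkn1b stands at 17.4 in the control and between 9.33 and 11.2 with H2O2.

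Myc encodes a transcription factor that drives growth and ribosome production, and it had the largest difference of the 8 genes. Its level was 1.64 times the 75th percentile in the control, 10.9 at 0.003%, 13.7 at 0.006% and 13.0 at 0.009%. All 3 treated cultures were far above the control, and with this scaling they lay close to each other. The differences were 6.63-fold (log2 2.73 ± 0.07, spot error), 8.33-fold (3.06 ± 0.07) and 7.89-fold (2.98 ± 0.07), and no more than 0.96% of features had a higher difference at any dose. The spot error is the scanner software's error of a signal, carried over to the difference of 2 arrays, and a difference is called within the spot error where its 95% interval from that error holds 0. It covers the reading of spots and not the spread between cultures.

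The Myc probe was printed in 10 spots, which gives a second view of the reading error. The log2 SD of the spots was 0.06 in the control, where all 10 were used, and 0.08, 0.06 and 0.06 over the 3 doses, where 9 were used. In the control no Myc spot was above 1.74 times the 75th percentile, and at 0.003%, the lowest of the treated arrays, none was below 10.3. With the 75th percentile scaling the step between 0.006% and 0.009% (0.08) was within the spot error. With it 0.003% lay below 0.009% by more than that error (0.25), but this order rests on the scaling. At 0.003% and 0.009% the differences of Myc were 2.58 and 2.42 with array median scaling, and 2.53 and 1.73 with spike-in scaling. In total RNA from a culture, a change in the number of cells that hold a transcript and a change in its amount per cell cannot be told apart.

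Odc1 makes putrescine from ornithine, the step that sets the pace of polyamine synthesis. Its level was 2.65 times the 75th percentile in the control, 10.6 at 0.003%, 9.56 at 0.006% and 5.91 at 0.009%. With the 75th percentile scaling it was highest at the 2 lower doses, whose levels were within the spot error of each other. At 0.009% it then lay between these and the control, apart from both. The differences from the control were 3.998-fold, 3.60-fold and 2.23-fold (log2 1.999, 1.85 and 1.16, each ± 0.20, spot error). A second Odc1 probe gave 2.55, 2.30 and 1.36, in the same order of doses. With spike-in scaling the differences of the first probe were 1.80, 1.27 and -0.09. The step between the 2 lower doses and the direction at the highest dose therefore rest on the scaling. The labels do not give the amount of spike-in RNA added per culture, so which scaling keeps absolute levels is not settled.

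Cdk4, the kinase partner of the D-type cyclins, is also a textbook MYC target, but it lay on the other side of the control. Its level was 17.5 times the 75th percentile in the control, 11.02 at 0.003%, 12.4 at 0.006% and 14.4 at 0.009%. With the 75th percentile scaling the order of the arrays runs from 0.003% up to the control, with every neighbouring pair within the spot error. The differences from the control were -0.67, -0.50 and -0.29 (log2, each ± 0.20), the last within the spot error. A second Cdk4 probe gave -0.73, -0.51 and -0.29. With array median scaling the first probe was at -0.81, -0.81 and -0.85. With spike-in scaling it was at -0.86, -1.08 and -1.53, lowest at 0.009%, so the order of the doses rests on the scaling. The difference of Odc1 exceeded that of Cdk4 by 2.67, 2.35 and 1.44 log2 units (± 0.29), a gap that a single scaling factor per array leaves as it is.

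The promoters of Odc1 and Cdk4 are shown because the pair shares the role of MYC target while lying on opposite sides of the control. They are RefSeq sequences of the GRCr8 build, 250 bases before to 50 bases after the gene's start, both on the plus strand, at chr6:46058415-46058714 for Odc1 and chr7:64771203-64771502 for Cdk4. Capitals mark GGGCGG, the GC box, in Odc1 and CACGTG, the E-box that MYC and its partner MAX can bind, in Cdk4, each searched on both strands.
Odc1: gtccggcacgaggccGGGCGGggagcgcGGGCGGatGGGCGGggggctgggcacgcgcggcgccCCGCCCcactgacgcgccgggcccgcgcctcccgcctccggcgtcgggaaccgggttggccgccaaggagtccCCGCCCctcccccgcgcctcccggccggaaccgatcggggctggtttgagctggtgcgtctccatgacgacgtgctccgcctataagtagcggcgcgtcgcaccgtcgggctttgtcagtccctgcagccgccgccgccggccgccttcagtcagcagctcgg
Cdk4: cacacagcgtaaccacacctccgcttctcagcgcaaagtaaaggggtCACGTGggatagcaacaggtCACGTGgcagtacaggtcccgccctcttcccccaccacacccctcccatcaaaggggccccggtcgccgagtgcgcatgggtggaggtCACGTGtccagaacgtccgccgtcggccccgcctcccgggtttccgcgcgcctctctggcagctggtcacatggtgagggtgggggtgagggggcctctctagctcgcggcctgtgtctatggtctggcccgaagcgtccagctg
The Cdk4 window held 3 E-boxes, with first bases at -203, -183 and -95 from the start, and the Odc1 window held none. Over the 33469 rat promoters of the table, 6.42% held at least 1 E-box and 0.057% held 3 or more. The Odc1 window held 5 GC boxes, which 33.1% of promoters held at least once and 8.97% held 3 or more times. No marked matches overlapped. Promoter entries were found for 5 of the 8 genes, also Ccnd3, Cdkn1b and Pcna. The windows of Ccnd3, Cdkn1b and Pcna held no CACGTG, which 6.42% of promoters held. None of the 5 windows held TGACGTCA (the cyclic AMP response element), TGANTCA (the AP-1 site) or TTTNNCGC (an E2F site). These 3 were held by 1.83%, 7.33% and 4.92% of promoters. The Ccnd3 window held 3 GC boxes, and those of Cdkn1b, Pcna and Cdk4 held 1 each, at -165 and unmarked in Cdk4. CCAAT, held by 37.5% of promoters, was found in the windows of Cdkn1b (2), Ccnd3 (1) and Pcna (1) and in neither sequence above. A match of letters is a description of the window and not a bound site. Sequence outside these windows, introns included, was not searched, so a window without a match does not show that the gene lacks the site.

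The 3 D-type cyclins, which activate Cdk4, had different dose patterns. Ccnd1 was at 57.3 times the 75th percentile in the control, 28.1 at 0.003%, 32.2 at 0.006% and 40.9 at 0.009%. With the 75th percentile scaling Ccnd1 was lowest at the lowest dose, and the control lay above all 3 treated arrays. Its differences were -1.03, -0.83 and -0.48 (log2, each ± 0.20), and the steps from 0.003% to 0.006% and from 0.006% to 0.009% were each within the spot error. A second Ccnd1 probe gave smaller differences of -0.62, -0.49 and 0.07, so the 2 probes disagreed in sign at 0.009%, with a gap of 0.56 there. The order of the doses rests on the scaling. The differences of the first probe were -1.17, -1.14 and -1.05 with array median scaling. With spike-in scaling they were -1.22, -1.41 and -1.73, lowest at 0.009%.

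Ccnd2 was at 1.78 times the 75th percentile in the control, 2.26 at 0.003%, 1.53 at 0.006% and 0.90 at 0.009%. At 0.009% its level lay below its other 3 arrays by more than the spot error allows. With the 75th percentile scaling no other gene of the 8 did so, while with spike-in scaling Cdk4, Cdkn1b and Pcna did. The differences were 0.35, -0.22 and -0.98 (log2, ± 0.20, 0.21 and 0.21), the first 2 within the spot error with the 75th percentile scaling. At 0.006% the difference was -0.53 with array median scaling and -0.79 with spike-in scaling, both beyond that error. Between the treated arrays, Ccnd2 was 2.51-fold lower at 0.009% than at 0.003% (log2 -1.33 ± 0.21). Over all features 5.31% were at least 2-fold lower and 12.4% higher between these 2 doses. With the 75th percentile scaling no other gene of the 8 differed so far between them. With array median scaling Odc1 did too, at 1.85 at 0.003% and 0.59 at 0.009%. With spike-in scaling Odc1, Pcna, Cdkn1b and Ccnd3 were at least 2-fold lower at 0.009% than at 0.003%. The share of all features between these 2 doses was not counted under either of these scalings. Compared with the 75th percentile scaling, spike-in scaling moved the median of all features by -0.19 at 0.003% and -1.21 at 0.009%. Array median scaling moved it by -0.15 and -0.53. Relative to Ccnd1 on the same arrays, the difference of Ccnd2 was higher by 1.37 at 0.003% and 0.61 at 0.006%. At 0.009% it was lower by 0.50 (-0.50 ± 0.29), which is within the spot error. This last value was -0.22 with quantile normalization, -0.78 with the mean of a gene's probes and 0.06 with normexp background correction.

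Ccnd3 was at 3.63 times the 75th percentile in the control, 2.01 at 0.003%, 1.62 at 0.006% and 2.04 at 0.009%. The control was above all 3 treated arrays by more than the spot error allows. With the 75th percentile scaling neighbouring treated arrays lay within that error. Its differences were -0.86, -1.16 and -0.83 (log2, each ± 0.20 to 0.21). With spike-in scaling they were -1.05, -1.74 and -2.08. Ccnd2 and Ccnd3 each had 1 probe, so no second probe checks them. With the 75th percentile scaling the summed fibroblast markers were, like Ccnd1 and Cdk4, lowest at 0.003% and highest in the control. Their part in these differences was not tested.

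Cdkn1b encodes p27, which binds and inhibits cyclin-dependent kinase complexes. Its level was 17.4 times the 75th percentile in the control, 11.2 at 0.003%, 9.33 at 0.006% and 10.4 at 0.009%. All 3 treated arrays were below the control. They spanned a narrow range with the 75th percentile scaling and a wider one with spike-in scaling. Its probe also had 10 spots, of which 8 to 10 were used, with a log2 SD between 0.03 and 0.05. The differences were -0.64 ± 0.07, -0.90 ± 0.07 and -0.74 ± 0.06 (log2, spot error), none of them 2-fold, and a second probe gave -0.71, -0.93 and -0.81. On the same arrays the difference of Myc exceeded that of Cdkn1b by 3.37, 3.96 and 3.72 log2 units (± 0.09 to 0.10).

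Pcna encodes the ring that tethers DNA polymerase to its template and is also a p53 target. Its level was 10.9 times the 75th percentile in the control, 23.8 at 0.003%, 20.6 at 0.006% and 17.1 at 0.009%. With the 75th percentile scaling the control was below all 3 treated arrays. The level was lower at each higher dose, although with this scaling the neighbouring steps of 0.21 and 0.27 were within the spot error. The differences were 2.18-fold, 1.89-fold and 1.57-fold (log2 1.13, 0.92 and 0.65, each ± 0.20), and a second probe gave 1.23, 0.81 and 0.39. The differences of the first probe were 0.98, 0.60 and 0.09 with array median scaling and 0.93, 0.34 and -0.60 with spike-in scaling. At 0.003% both were short of 2-fold, and the size of the steps between doses rests on the scaling.

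**Figure D2:**
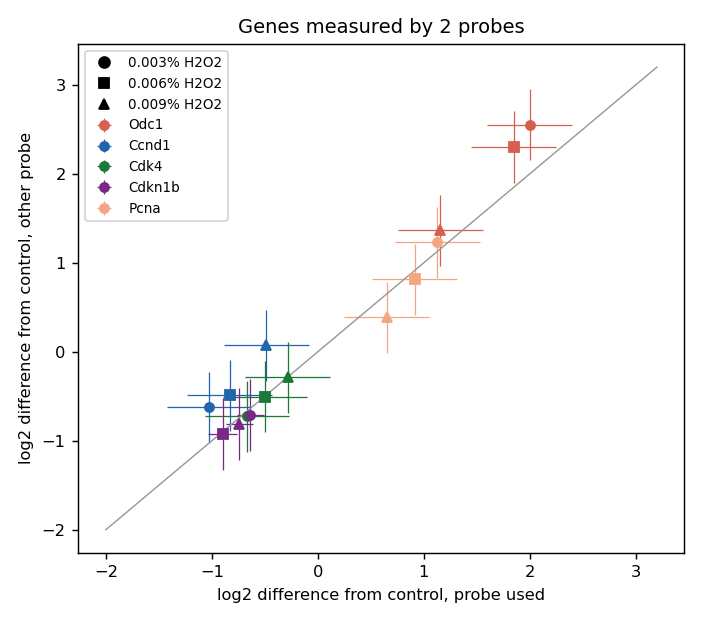
Log2 difference from control of the 5 genes with 2 probes, the probe used (horizontal) against the other probe (vertical), by gene colour and by dose symbol. Bars are 95% intervals from the spot error and the line marks equality. Cdk4 and Cdkn1b lie on the line, the second Ccnd1 probe lies above it at every dose, and the second Odc1 probe lies higher, by 0.21 to 0.55.

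**Figure D3:**
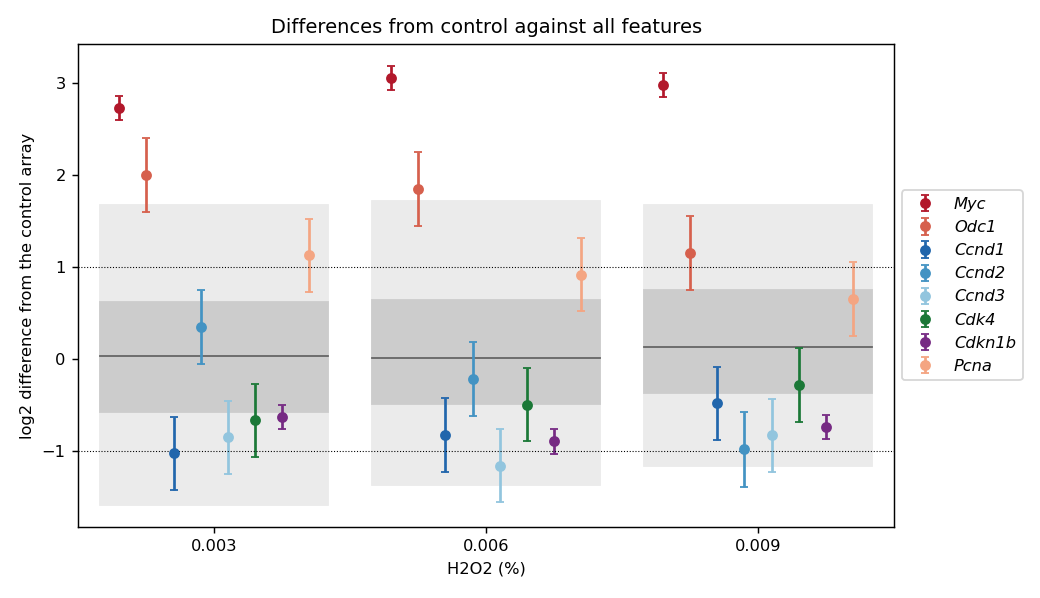
Log2 difference from the control array of the 8 genes at the 3 doses, with 95% intervals from the spot error. Light grey runs between percentiles 5 and 95 and dark grey between percentiles 25 and 75 of all features, a line marks their median, and dotted lines mark 2-fold. Myc lies above the light band at every dose, Odc1 above it at 0.003% and 0.006%, and the other 6 within it.

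The genes that act with the 8 were taken from 9 lists. Their counts stand beside all-feature shares of 14.9%, 14.9% and 16.5% at least 2-fold higher and 13.6%, 10.5% and 7.40% lower over the 3 doses. With spike-in scaling the shares were 11.1%, 6.22% and 2.22% higher and 18.2%, 27.6% and 54.0% lower. With array median scaling they were 11.9%, 9.45% and 6.00% higher and 16.9%, 18.3% and 22.6% lower. With normexp they were 6.64%, 5.88% and 4.22% higher and 6.24%, 5.07% and 3.55% lower. With quantile normalization 12.8% of features were higher at 0.003%. Of the MYC network, 6 of 12 genes were measured. Max, the obligate partner of MYC, was 3.25-fold higher at 0.003% (log2 1.70 ± 0.22) and was at 0.74 at 0.006% and 0.44 at 0.009%, the last negative with array median and spike-in scaling. Mycn, the MYC paralogue, was at -1.73, -1.03 and -0.72, and Mxd3, a MAX partner that opposes MYC, at -1.52, -1.05 and -0.55. The count at or past 2-fold was 1 above and 2 below the control at 0.003%, 0 above and 2 below at 0.006%, and none at 0.009%, with medians of -0.07, -0.22 and -0.05. With normexp none was 2-fold away at any dose (Max 0.94, Mycn -0.78 and Mxd3 -0.97 at 0.003%), and with spike-in scaling 5 were lower at 0.009%.

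Known MYC targets, most of them of ribosome and nucleotide synthesis, mostly stood on the same side of the control as Myc. The list also holds Eif4e, Eif4a1, Hspd1, Hspe1 and Ldha, which are not genes of ribosome or nucleotide synthesis. Of 17 measured, 15, 14 and 11 were at least 2-fold higher over the 3 doses, and 0, 0 and 1 were lower. Their medians were 1.57, 1.58 and 1.20 (log2), beside 0.03, 0.01 and 0.13 over all features. With spike-in scaling 12, 9 and 0 were 2-fold higher and 0, 1 and 1 lower, with a median of -0.05 at 0.009%. The nucleolar protein gene Nolc1 was at 2.73, 2.72 and 2.09, the RNA polymerase I subunit gene Polr1b at 2.74, 2.61 and 1.58, and the cap-binding factor gene Eif4e at 2.52, 2.51 and 2.20. Ldha, lactate dehydrogenase, was the 1 gene of the list at least 2-fold lower, at -0.39, -0.96 and -1.13; it was singled out after its values were seen. The list was drawn up with earlier results of these data known and is not independent evidence of a direction.

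Of polyamine genes apart from Odc1, 8 of 11 were measured, and 3, 1 and 1 were at least 2-fold higher with none lower. At 0.003% only 1 was so under each of array median, quantile, spike-in and normexp, and spike-in scaling put 3 at least 2-fold lower at 0.009%. Arg2, the arginase that supplies ornithine, was at 4.14, 3.99 and 2.76 (log2) and at 2.03, 1.94 and 1.18 with normexp, from a dim control level of 0.078 times the 75th percentile. Sat1, which acetylates polyamines for breakdown or export, was at 1.05, 0.93 and 0.81, and Amd1, which feeds spermidine synthesis, at 0.63, 0.96 and 0.94. At 0.009% spike-in scaling put Sat1 and Amd1 below 0. The list median was 0.64, 0.67 and 0.32, the last negative with array median and spike-in scaling.

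Of kinase and cyclin genes of G1 and S phase, 6 of 10 were measured, and at each dose 1 was at least 2-fold higher and none lower, a share near that of all features. At 0.009% none was higher with array median, normexp or spike-in scaling, and spike-in scaling put 1, 1 and 4 lower. The 1 gene was Ccnh, the cyclin of the kinase that activates CDKs, at 1.41, 1.35 and 1.17, of which spike-in scaling turned the last below 0. Cdk2, the partner of cyclin E, was at 0.33, 0.25 and 0.18, the last 2 negative with array median and spike-in scaling. Ccna2, cyclin A of S phase, was at -0.97, -0.69 and -0.20, and the phosphatase gene Cdc25a was at 0.89, 0.65 and -0.06, the last positive with normexp. The list medians were 0.29, 0.31 and 0.11, the last 2 negative with array median and spike-in scaling. Ccne1, Ccne2, Cdk6, Rb1, E2f1, Skp2 and Mki67 were not analysed here.

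Among other inhibitors of these kinases, 5 of 6 were compared, and only Cdkn1a (p21) was at least 2-fold away from the control, at 17.0-fold, 17.1-fold and 13.0-fold higher, on the opposite side from Cdkn1b. With array median scaling Cdkn2c was also at least 2-fold lower at 0.006% (-1.13), and spike-in scaling put 1, 1 and 3 of the 5 at least 2-fold lower. Cdkn2c was at -0.85, -0.82 and -0.39, and Cdkn1c (p57) at 0.68, 0.67 and 0.54, the last negative with array median and spike-in scaling. The median of the list was -0.28, at most -0.32 and 0.06, where the bound is that of Cdkn2a, dim at 0.006%, with its sign turning at 0.009% under array median and spike-in scaling and at 0.003% under normexp, where it was 0.01. Of the RB and E2F genes only Rbl2 and Tfdp1 were measured. Rbl2, the pocket protein p130 of quiescent cells, was at -2.02, -1.27 and -0.50, and Tfdp1, an E2F partner, at 0.36, 0.22 and -0.10, negative at 0.006% too with array median and spike-in scaling. The median of these 2 was -0.83, -0.52 and -0.30.

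Of genes for the turnover of MYC, cyclins and p27, 3 of 16 were measured and none was 2-fold away, with medians of -0.10, -0.56 and -0.77. Array median scaling put 0, 1 and 2 of them at least 2-fold lower, and spike-in scaling 0, 2 and 3. Gsk3b, a kinase that marks cyclin D1 and MYC for degradation, was at -0.10, -0.56 and -0.85, and Fbxo31, a ubiquitin ligase subunit that targets cyclin D1, at -0.32, -0.69 and -0.77. Skp1, a scaffold of such ligases, was at 0.17, 0.20 and 0.13, negative at every dose with quantile normalization and spike-in scaling, with array median scaling at 0.006% and 0.009%, and with normexp at 0.009%.

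Pcna works with the enzymes that copy DNA. Of 14 DNA replication genes measured, none was at least 2-fold higher at any dose and 0, 1 and 0 were lower, with medians of -0.35, -0.24 and -0.16. With array median scaling 2, 2 and 4 were at least 2-fold lower, and with spike-in scaling 2, 4 and 12. Rfc2, a subunit of the clamp loader that opens the PCNA ring, was at -0.96, -1.15 and -0.81, Pold1, the catalytic subunit of polymerase delta, at -0.99, -0.96 and -0.47, and the ligase gene Lig1 at -0.65, -0.67 and -0.45. Of 8 measured genes of G2 and M phase, 3, 0 and 0 were at least 2-fold lower and none was higher, with medians of -0.77, -0.23 and 0.33, the last negative with array median and spike-in scaling. Array median scaling put 4, 1 and 0 of them at least 2-fold lower, spike-in scaling 4, 3 and 3, and normexp 1, 1 and 0. Cdk1, the mitotic kinase, was at -0.99, -0.62 and -0.09, Cdc20, which activates the anaphase ligase, at -1.02, -0.55 and -0.11, and Plk1 at -1.22, -0.98 and -0.42.

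**Figure D4:**
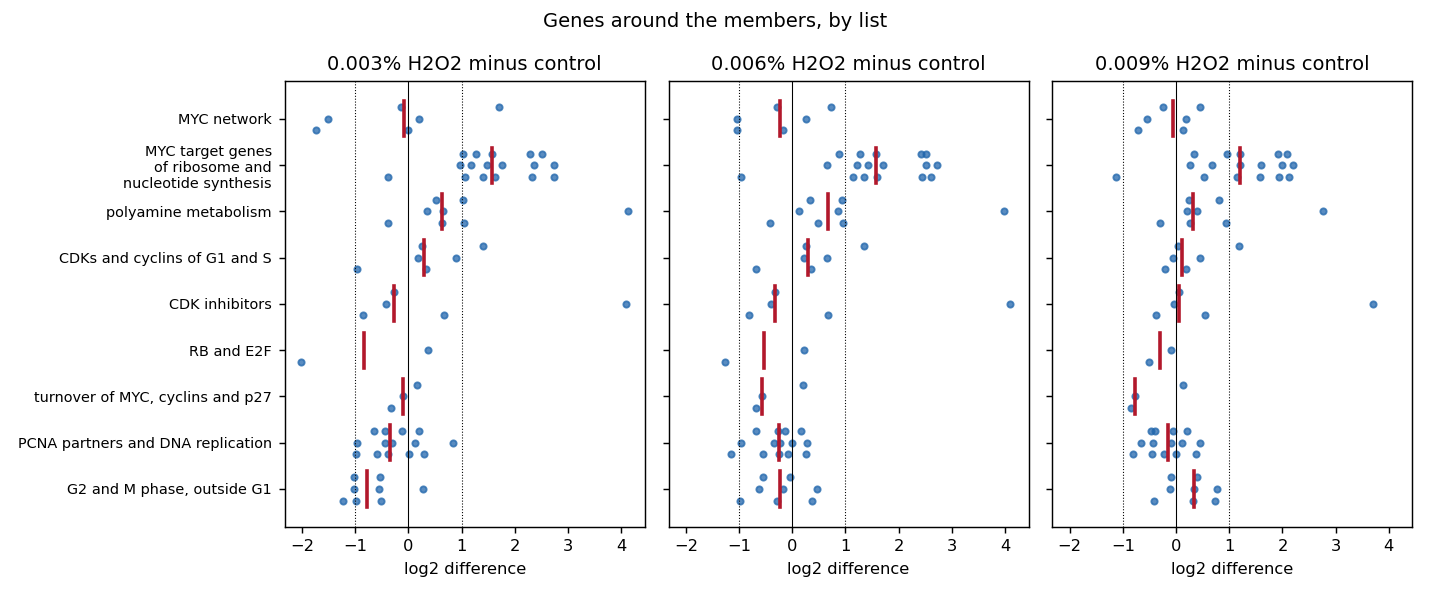
Log2 difference from control of every measured gene in the 9 lists (points, spread vertically for sight), 1 panel per dose. Red bars are list medians and dotted lines mark 2-fold. The MYC targets, mostly of ribosome and nucleotide synthesis, have medians of 1.57, 1.58 and 1.20, and the single points far right are Arg2 and Cdkn1a.

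A straight line over dose was fitted to each of 22352 features with limma on the 4 arrays. It called 0 features (0%) at an adjusted p under 0.05, with 3095 at an unadjusted p under 0.05. For Myc the fitted change over the dose range was 2.78 ± 1.03 (log2, SE, limma adjusted p = 0.36), and for Ccnd2 it was -1.05 ± 0.50 (limma adjusted p = 0.44). The other 6 genes had limma adjusted p-values between 0.50 and 0.86. With the control set against the 3 treated arrays instead, Myc was at 2.92 ± 0.30 (limma adjusted p = 0.052) and Odc1 at 1.67 ± 0.44 (limma adjusted p = 0.12), and again 0 features were called, with 5496 at an unadjusted p under 0.05. The residual of either fit holds the differences between doses as well as between cultures.

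The genes most like each of the 8 were sought among 4978 other named genes above background on all 4 arrays, by the root mean square distance between their log2 differences over the 3 doses. Nearest to Myc were Gadd45a, a growth arrest and DNA damage gene (distance 0.07, at 2.78, 3.16 and 2.95), the zinc finger factor gene Klf6 (0.09) and Ccdc117 (0.19). Nearest to Odc1 were the nuclear import gene Kpna1 (0.03), Vcpip1 (0.04) and Pum3 (0.06), and to Pcna Trib1 (0.03), Tmem199 (0.03) and the clock gene Cry1 (0.04). Nearest to Ccnd1 were Acadvl (0.02), Serping1 (0.03) and Nagk (0.03), to Ccnd2 Tymp (0.09), Rab8b (0.09) and Poc5 (0.09), and to Ccnd3 Atp8b2 (0.04), Golga2 (0.05) and Duox1 (0.06). Nearest to Cdk4 were Itm2c (0.02), Atxn10 (0.02) and Dlx5 (0.03), and to Cdkn1b Pld2 (0.03), Stat6 (0.04) and Stard10 (0.05). With 3 values per gene such closeness is a description of these arrays.

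The scaling set how far the genes lay from the control at 0.009%. Array median scaling moved the median of all features by -0.53 there and spike-in scaling by -1.21, and quantile normalization by -0.15. With spike-in scaling Myc was still above the control at 0.009%, at 1.73, but Ccnd1, Ccnd2, Ccnd3, Cdk4 and Cdkn1b were at -1.73, -2.23, -2.08, -1.53 and -1.99. These 5 genes were then all at least 2-fold lower, against 54.0% of features. At 0.003% the same scaling left Myc at 2.53, Odc1 at 1.80, Pcna at 0.93 and Ccnd1 at -1.22.

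**Figure D5:**
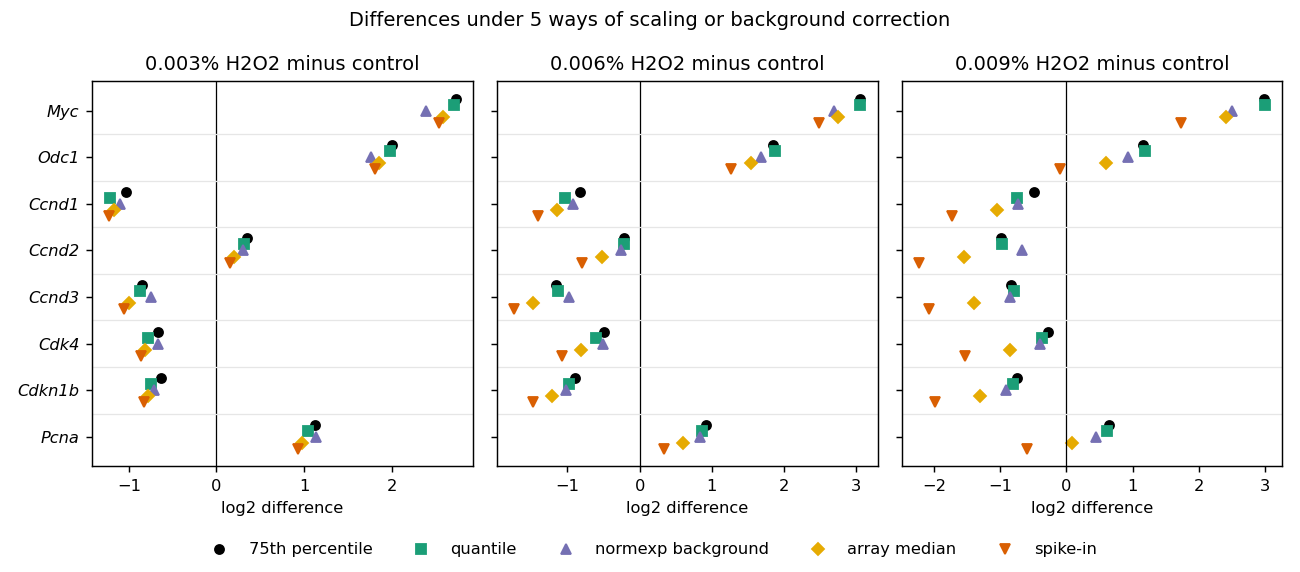
Log2 difference from control of the 8 genes at each dose under the 75th percentile, quantile normalization, normexp background correction, array median and spike-in scaling (symbols), with 0 marked. The symbols lie close together at 0.003% and apart at 0.009%, where Odc1 and Pcna are below 0 with spike-in scaling, at -0.09 and -0.60.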

How the data were processed

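Total RNA of 4 NRK-52E cultures was labelled with Cy3 and hybridised to 1-colour Agilent arrays (design 014879). The scans were read under the protocol GE1_107_Sep09 of Agilent Feature Extraction 10.7.3.1, per the file headers. The values used are the deposited processed signal, a linear intensity made by that software. No header of these files records its corrections, and its level differs between arrays. The authors' table is a ratio. In 100% of probes it equalled the mean processed signal over the array's median within a relative 1e-06, with known direction, and it served as an alternative. Its column medians were 0.962 for the control and 0.955, 0.965 and 0.972 in dose order.

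Outlier spots were left out, log2 signals of a probe's spots were averaged, and each array was scaled to its own 75th percentile. Of 41012 probes 41007 were used and 10834 (26.4%) were named through RefSeq accessions (GRCr8 table, for names). The probes were designed on rn4. Unnamed probes of 1 accession count as 1 feature. Features dim on both arrays of a comparison were left out. A dim side entered as a bound, at the lowest signal that passed on the same array unless its own was higher. Named genes were the 8, a fixed set (such as Cdkn1a, Cdk2 and Max), the 3 of each list with the largest absolute mean difference, and the 3 nearest to each of the 8. The 8 genes and the lists were chosen with earlier results of these data known.

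The trend used limma 3.58.1 in R 4.3.3 (2 residual degrees of freedom, Benjamini-Hochberg over all features) and was tested on simulated data. Normexp (offset 50) ran on median spot and background signals, as the files used here carry no mean spot signal. Spike-in scaling used the median of 8 spike-in probes. Alternatives were other scalings, normexp, the deposited table, the mean of a gene's probes, outlier spots kept, features above background on both arrays, and a 1.5-fold rule.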

Additional observations from a re-analysis of the deposited data

How the results depend on the processing

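Over the 24 differences of the 8 genes from the control, 94 of 96 values under array median, quantile, spike-in and normexp kept the sign, and the exceptions were Odc1 (-0.093) and Pcna (-0.60) at 0.009% with spike-in scaling. The deposited table nearly repeats array median scaling. The other alternatives left 24 values as they were with both arrays above background, 19 with outlier spots kept and 9 with the mean of probes. Those values could not move. All 8 genes were above background on each array, the 19 had no spot left out, and the 9 are of Myc, Ccnd2 and Ccnd3, with 1 probe each. At 0.003%, 3 genes were at least 2-fold higher, against 2 with array median scaling, the deposited table or spike-in scaling, where Pcna was lost (0.98, 0.98 and 0.93), and 1 was lower, against 2 with array median scaling, the deposited table or spike-in scaling, 0 with the mean of a gene's probes (Ccnd1 at -0.83) and 4 by the 1.5-fold rule. Of all features at this dose, 11.9% were higher and 16.9% lower with array median scaling or the deposited table. The shares were 11.1% and 18.2% with spike-in scaling, 13.3% lower with the mean of probes and 24.7% lower by the 1.5-fold rule. At 0.006%, 1 was lower, against 3 with array median scaling, the deposited table or the 1.5-fold rule, 4 with spike-in scaling and 2 with quantile normalization. The share of all features lower at this dose was 18.3% with array median scaling or the deposited table and 21.5% by the 1.5-fold rule. It was 27.6% with spike-in scaling and 12.0% with quantile normalization. At 0.009%, 2 were higher, against 1 with array median scaling, the deposited table, spike-in scaling or normexp, and none was lower, against 4 with array median scaling or the deposited table, 5 with spike-in scaling and 3 by the 1.5-fold rule. Of all features at this dose, 6.00% were higher and 22.6% lower with array median scaling or the deposited table. The shares were 2.22% and 54.0% with spike-in scaling, 4.22% higher with normexp and 17.3% lower by the 1.5-fold rule. The cause of these changes in the counts was not tested beyond the shift that a scaling factor gives every gene of an array by construction. Of all features at least 2-fold away at 0.009%, 69.0% were higher, against 47.2% after quantile normalization, 21.0% by array median, 3.95% by spike-in and 54.3% with normexp. At 0.003% the share was 52.2%, against 41.2% by array median and 38.0% by spike-in, and at 0.006% 58.7%, against 34.1% and 18.4%. The trend called 0 features under each of 8 alternatives run, and with the control set against the 3 treated arrays, with 1957 to 8315 at an unadjusted p under 0.05. All 8 genes lay well above background, so none of their differences is a bound. Their size could still depend on the background correction. With normexp the difference of Myc was smaller at every dose, and that of Ccnd2 was smaller in size at 0.009%. The difference of Cdkn1b was larger in size at every dose with normexp. No paired analysis was possible because each dose has 1 array. Leaving out an array was not possible for a difference, since each rests on 2.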
